A study of Homo sapiens with 6 samples.

Results

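Notch receptors, their ligands and their HES and HEY target genes were followed in osteosarcoma cells depleted of FUBP1. The set was chosen by gene symbol, with earlier results of these data known, and holds 10 of the 58735 genes counted: the receptors NOTCH1, NOTCH2 and NOTCH3, the ligands JAG1, JAG2 and DLL1, and the targets HES1, HEY1, HEY2 and HEYL. RNA sequencing counted reads per gene in 6 samples of MG63, an established human osteosarcoma cell line. The 3 siFUBP1 samples were transfected with a small interfering RNA (siRNA) against FUBP1, a protein that binds single-stranded nucleic acid and is known as a regulator of MYC transcription. The 3 siMock samples received a negative control siRNA, and RNA was taken 48 h after transfection in both groups. All samples come from 1 cell line, and no rescue with FUBP1 was sequenced. Total counts ran from 16309900 to 17484313 per sample. Levels are normalised counts (CPM, reads relative to the scaled library size), given as the mean ± SD over the samples of a group (n = 3). FUBP1 itself stood at 255 ± 18.5 CPM in siMock and 46.9 ± 5.33 CPM in siFUBP1, a log2 fold change of -2.44 (SE 0.0895, adjusted p = 1.90e-17), with no overlap between the groups. Fold changes are siFUBP1 over siMock, and adjusted p-values are those of edgeR's quasi-likelihood test, corrected by the Benjamini-Hochberg method across all 16116 genes that entered the test. A gene rose or fell here when its adjusted p was below 0.05.

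Notch receptors sit in the cell membrane and are bound by Jagged or Delta-like ligands on a neighbouring cell. Binding exposes the receptor to a cut by an ADAM protease and then by gamma-secretase, which frees the intracellular domain. In the nucleus that domain joins the DNA-binding protein RBPJ and a Mastermind coactivator and switches on genes of the HES and HEY families, which encode transcriptional repressors. In the bone lineage Notch is known to hold osteoblast precursors back from maturation.

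The siRNAs used against FUBP1 by the study are shown because a guide can also act on other transcripts that match its seed, bases 2 to 8, printed in capitals. The sources used here do not say which of them was sequenced. The guide strands, with lower-case t for the DNA overhang, were
RNAi#1: uAAACUGAaugcgaacacctt
RNAi#2: uAAGAGGUuugucagcacctt
RNAi#3: uUUCUUCUaugaguugccgtt
Sites complementary to the seed of RNAi#1 were counted 2 times in the annotated 3′ untranslated region of NOTCH2 and 1 time in that of HEY2. The seed of RNAi#2 had 2 sites in HEYL. The seed of RNAi#3 had 1 site each in NOTCH2 and NOTCH3. NOTCH1, JAG1, JAG2, DLL1, HES1 and HEY1 had none for any guide. Of the 12431 tested genes with such a region, 19.9%, 12.2% and 19.4% held at least 1 site for RNAi#1, RNAi#2 and RNAi#3. The part of such matches in any change was not tested.

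The labelled cell type was checked against 8 osteoblast and mesenchymal markers, of which 7 had a read in some sample. COL1A2, which encodes a chain of type I collagen, had 0 reads in all 6 samples, which allows up to 0.184 CPM in the shallowest. ALPL, an alkaline phosphatase of osteoblasts, had at most 1 read, and SP7, an osteoblast transcription factor, had at most 2 reads in any sample. These reads put the osteoblast side of the label in question, and the identity of the line was not tested further. COL1A1, the other type I collagen chain, fell from 113 ± 4.68 CPM to 45.5 ± 0.150 CPM (log2 fold change -1.31, adjusted p = 1.83e-13). VIM, a mesenchymal filament protein, rose from 141 to 159 CPM in the siMock samples to 183 to 214 CPM in the siFUBP1 samples (log2 fold change 0.38, adjusted p = 2.10e-04). The summed level of the list, made mostly of these opposite movers, ran from 257 to 273 CPM in siMock and from 235 to 263 CPM in siFUBP1. RUNX2, the osteoblast lineage regulator, had 6 to 8 reads in siMock and 39 to 97 reads in siFUBP1 (log2 fold change 3.15, adjusted p = 4.53e-08). SPP1 had 1 to 2 reads in siMock and 7 to 22 in siFUBP1, and BGLAP 2 to 4 and 8 to 13. Neither SPP1 nor BGLAP had enough reads to be tested. Summed endothelial, epithelial and blood cell markers each stayed at or below 6.10 CPM in every sample. The endothelial sum was 3.20 to 5.18 CPM in siMock and 1.95 to 2.81 CPM in siFUBP1, and the blood cell sum 3.52 to 3.98 CPM and 2.08 to 2.81 CPM. KRT5, an epithelial keratin, and CD3E, a chain of the T cell receptor complex, had 0 reads in all samples. The part of these marker levels in the results was not tested.

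Of the 10 genes, 7 had enough reads to be tested. NOTCH1, NOTCH2, NOTCH3 and HES1 fell, JAG1 and HEY1 rose, and JAG2 did not pass. Over all genes tested 30.1% rose and 30.1% fell, so that 60.2% changed, and the 2 that rose and 4 that fell of the 7 stand beside those shares. Past a 2-fold change, 0 of the 7 rose and 2, NOTCH3 and HES1, fell, where 8.16% of all genes tested rose and 9.13% fell by that much. In 6 of the 7 the siMock and siFUBP1 samples did not overlap, as was so for 63.9% of all genes tested. The median log2 fold change of the 7 was -0.52, against 0.0020 over all genes tested. In bulk RNA, fewer expressing cells and less RNA per cell cannot be told apart.

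**Figure D1:**
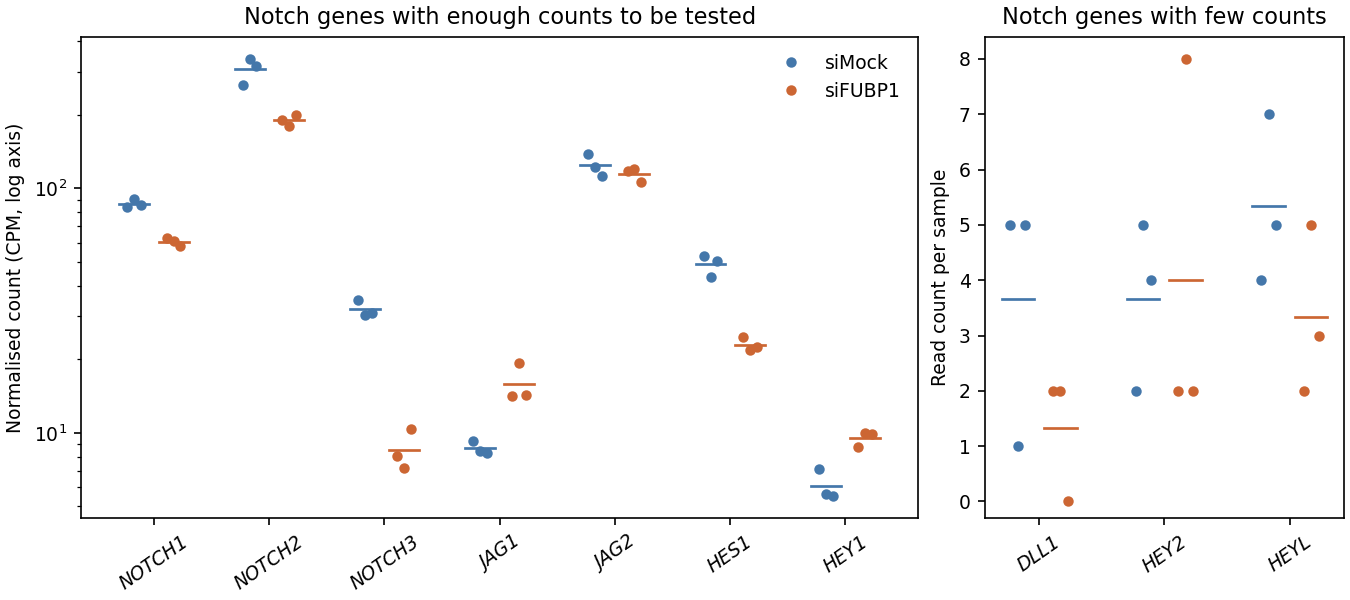
Levels of the 10 Notch genes by sample. Left, normalised count in CPM on a log axis for the 7 genes tested; right, read count per sample for DLL1, HEY2 and HEYL. Points are samples (siMock blue, siFUBP1 orange, n = 3 each) and lines are group means. NOTCH3 lies at 30.5 CPM or more in every siMock sample and at 10.4 CPM or less in every siFUBP1 sample, and JAG2 is the gene at left whose groups overlap.

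All 3 receptor transcripts fell. NOTCH3 fell most, to 26.6% of its siMock level. NOTCH3 (ENSG00000074181, chromosome 19, 15159038 to 15200981, minus strand, GRCh38) is the receptor known best from vascular smooth muscle and pericytes. Its reads in the siMock samples numbered 573, 518 and 482, and in the siFUBP1 samples 136, 125 and 181. Every siFUBP1 sample was far below the lowest siMock sample. In normalised counts NOTCH3 went from 32.2 ± 2.57 CPM to 8.54 ± 1.64 CPM. The log2 fold change was -1.91 (SE 0.125, 95% interval -2.17 to -1.65, adjusted p = 1.05e-12).

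Per kilobase of exon NOTCH2 was the most abundant receptor. NOTCH2 (ENSG00000134250, chromosome 1, 119911553 to 120069626, minus strand) is a widely expressed receptor that also acts in the skeleton. It had 4314, 5766 and 4923 reads in siMock and 3216, 3128 and 3476 reads in siFUBP1. The groups did not overlap, although siMock replicate 1 lay below the other siMock samples. The level was 306 ± 38.3 CPM in siMock and 190 ± 9.39 CPM in siFUBP1. The log2 fold change was -0.69 (SE 0.0860, 95% interval -0.87 to -0.51, adjusted p = 1.34e-07). Near-identical partial copies of NOTCH2 lie elsewhere on chromosome 1, and how reads shared with them were counted is not stated, so its value is uncertain. One such copy, NOTCH2NLA, had 18, 23 and 27 reads in siMock and 9, 7 and 9 in siFUBP1, a log2 fold change of -1.51 (SE 0.402, adjusted p = 0.00212).

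NOTCH1 moved least of the receptors, and its call depended on a correction for base composition. NOTCH1 (ENSG00000148400, chromosome 9, 136494433 to 136545786, minus strand) is the receptor whose activating mutations are known in T cell leukaemia. Its reads numbered 1371, 1540 and 1332 in siMock and 1059, 1052 and 1010 in siFUBP1. All 3 siFUBP1 samples were below all 3 siMock samples. The level went from 86.6 ± 3.50 CPM to 60.4 ± 2.43 CPM, a log2 fold change of -0.52 (SE 0.0795, 95% interval -0.68 to -0.36, adjusted p = 3.15e-06). The GC content of its longest transcript was 62.9%, above that of 92.5% of the genes tested, whose median was 48.9%. With an offset for GC content and length the log2 fold change of NOTCH1 was -0.10 and did not pass (adjusted p = 0.211). NOTCH3, at 63.1% GC, kept its fall under the same offset, at -1.49 (adjusted p = 2.32e-10), as did NOTCH2, at 49.4% GC, at -0.48 (adjusted p = 1.89e-06).

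**Figure D2:**
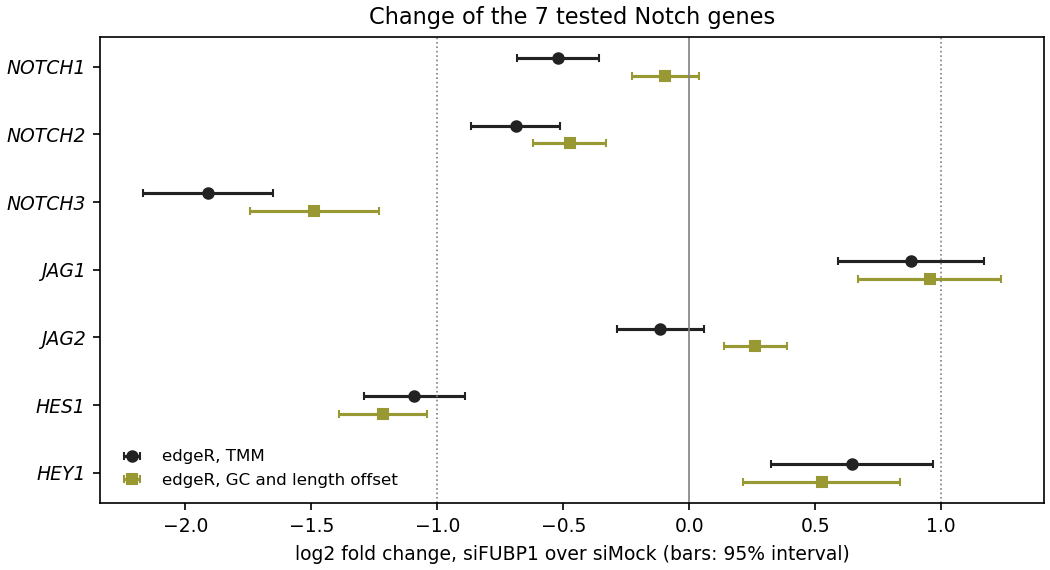
Log2 fold change of the 7 tested Notch genes, siFUBP1 over siMock, n = 3 each. Black circles are the edgeR fit with TMM scaling and olive squares the fit with an offset for GC content and length, bars are 95% intervals and dotted lines mark a 2-fold change. The intervals of NOTCH1 and JAG2 change sides of 0 or of the threshold between the fits, NOTCH1 from -0.52 to -0.10 and JAG2 from -0.12 to 0.26, while the other 5 genes keep their side.

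Per kilobase of exon, which allows levels to be compared between genes, the receptors summed to 30.0 ± 2.31 CPM per kilobase in siMock and 18.0 ± 0.615 in siFUBP1, which is 60.1% of the siMock level. The 3 siFUBP1 sums were all below the 3 siMock sums (exact two-sided permutation test, p = 0.1, the smallest that 3 samples against 3 can give). Within the sum, NOTCH3 took 13.6%, 10.1% and 10.9% in the siMock samples and 4.70%, 4.42% and 5.96% in the siFUBP1 samples. Its share was thus lower by a mean of -6.47 percentage points, with no overlap (exact permutation test, p = 0.1). The share of NOTCH1 was 27.9% ± 1.28 in siMock and 32.3% ± 1.94 in siFUBP1, also without overlap (exact permutation test, p = 0.1). NOTCH2 held 60.6% ± 3.09 and 62.7% ± 1.13, and here the groups overlapped (exact permutation test, p = 0.5). In all 8 such comparisons of shares and sums were made, and the smallest Benjamini-Hochberg adjusted p of these exact permutation tests was 0.16, so that none passed. Sums and shares were taken without the offset for GC content and length, under which NOTCH1 was at -0.10 and did not pass. NOTCH2, the largest part of the receptor sum, is uncertain for the shared reads described above.

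**Figure D3:**
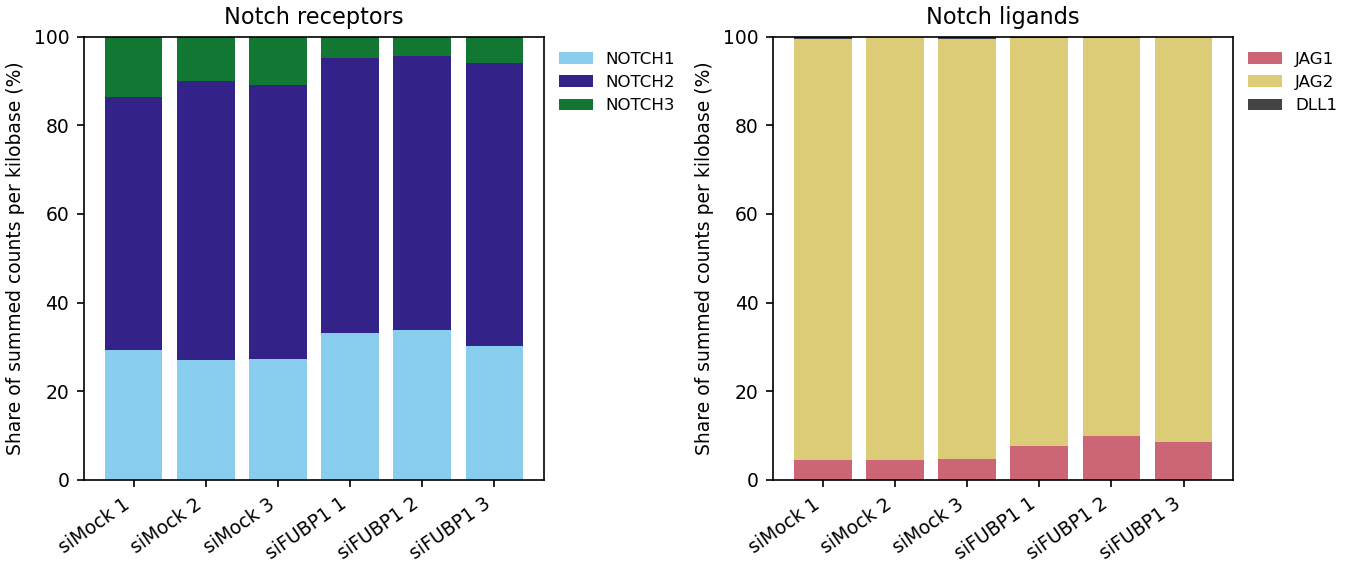
Makeup of the Notch receptor transcripts (left) and ligand transcripts (right) in each sample, as percent of summed counts per kilobase. Each bar is 1 sample and each colour 1 gene. NOTCH3 takes 10.1% to 13.6% of the receptor sum in siMock and 4.42% to 5.96% in siFUBP1, and JAG1 takes 4.37% to 4.80% of the ligand sum in siMock and 7.65% to 9.89% in siFUBP1.

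Among the ligands JAG1 rose and JAG2 did not pass, and DLL1 was hardly counted. JAG1 (ENSG00000101384, chromosome 20, 10637684 to 10673999, minus strand) encodes Jagged 1, the ligand whose loss of 1 copy causes Alagille syndrome. It had 151, 143 and 129 reads in siMock and 240, 334 and 249 reads in siFUBP1. The siFUBP1 samples were all higher, and siFUBP1 replicate 2 was the highest. The level rose from 8.64 ± 0.533 CPM to 15.9 ± 2.90 CPM, a log2 fold change of 0.88 (SE 0.141, 95% interval 0.59 to 1.17, adjusted p = 6.26e-06).

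JAG2 (ENSG00000184916, chromosome 14, 105140981 to 105168824, minus strand) encodes the related ligand Jagged 2 and was the most abundant ligand transcript per kilobase. Its reads numbered 2261, 2085 and 1751 in siMock and 1988, 2089 and 1857 in siFUBP1. In reads the siFUBP1 samples lay within the siMock range, and in normalised level the groups overlapped, with siFUBP1 replicate 3 at 106 CPM below the lowest siMock sample at 112 CPM. The mean level was 124 ± 13.3 CPM in siMock and 115 ± 7.46 CPM in siFUBP1, a log2 fold change of -0.12 (SE 0.0839, 95% interval -0.29 to 0.06, adjusted p = 0.240). JAG2 had a GC content of 64.0%, and with the offset for GC content and length its log2 fold change was 0.26 and passed (adjusted p = 5.72e-04), so that neither direction held under both fits. JAG1, at 49.6% GC, was at 0.95 with that offset. The genes whose annotated exons overlap those of JAG1 (over 79 bases) and JAG2 (over 469 bases) had 0 reads in every sample.

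DLL1 (ENSG00000198719, chromosome 6, 170282206 to 170306565, minus strand), a Delta-like ligand, had 5, 1 and 5 reads in siMock and 2, 2 and 0 reads in siFUBP1. A difference was not detectable at this depth. Summed per kilobase, the ligands stood at 20.5 ± 2.14 CPM per kilobase in siMock and 19.7 ± 1.41 in siFUBP1, which is 96.2% of the siMock level, and the groups overlapped (exact permutation test, p = 0.6). JAG1 took 4.56% ± 0.217 of that sum in siMock and 8.66% ± 1.14 in siFUBP1, and JAG2 95.1% ± 0.384 and 91.2% ± 1.15. Neither pair of groups overlapped (exact permutation test, p = 0.1 for each). The ligand sum and shares were likewise taken without the offset, under which the log2 fold change of JAG2 was 0.26.

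The targets went in different directions. HES1 fell to 46.9% of its siMock level, and HEY1 rose. HES1 (ENSG00000114315, chromosome 3, 194136145 to 194138732, plus strand) encodes a repressor that is the most widely used Notch target. It had 864, 739 and 789 reads in siMock and 416, 379 and 392 reads in siFUBP1. The highest siFUBP1 sample was far below the lowest siMock sample. The level went from 49.0 ± 4.91 CPM to 23.0 ± 1.46 CPM, a log2 fold change of -1.09 (SE 0.0976, 95% interval -1.29 to -0.89, adjusted p = 3.87e-10). With the offset for GC content and length it was -1.22 (adjusted p = 4.11e-12).

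HEY1 (ENSG00000164683, chromosome 8, 79764010 to 79767863, minus strand), a repressor used by endothelial and mesenchymal cells, had 116, 96 and 86 reads in siMock and 148, 173 and 172 reads in siFUBP1. All siFUBP1 samples were higher than all siMock samples. The level rose from 6.09 ± 0.886 CPM to 9.53 ± 0.667 CPM, a log2 fold change of 0.65 (SE 0.156, 95% interval 0.32 to 0.97, adjusted p = 0.000870). HEY1 and HES1 thus moved in opposite directions, each beyond the spread between its samples and each also with the offset, under which HEY1 was at 0.53 (adjusted p = 0.00404).

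HEY2 (ENSG00000135547, chromosome 6, 125747664 to 125761269, plus strand) and HEYL (ENSG00000163909, chromosome 1, 39624153 to 39639945, minus strand) are further HEY family repressors, known from heart and vessels. HEY2 had 2, 5 and 4 reads in siMock and 2, 8 and 2 reads in siFUBP1. HEYL had 4, 7 and 5 reads in siMock and 2, 5 and 3 reads in siFUBP1. For both, as for DLL1, the groups overlapped and reads were too few to test, and a change was not detectable at this depth.

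RBPJ binds DNA at a site with the core TGGGAA, and this core was searched on both strands in the RefSeq promoters (GRCh38.p14), in the 250 bases before the start. Of 35116 promoters, 20.8% held at least 1 core and 2.90% at least 2. HES1 held 2, with first bases at -84 and -70 from the RefSeq start, and HEYL and HES5 2 each. HES5, a relative of HES1, is described among the other targets. HEY2 held 1, and the promoters of NOTCH1, NOTCH2, NOTCH3, JAG1 and JAG2 held 0. Of the other genes of the pathway, described further on, NRARP, DLL4 and HES7 held 0 cores. HES4 held 1, but that core lay past the annotated gene start, with 0 cores before it. HES2 and HES6 held 0 cores. The RefSeq windows of HES2, HES6, HEY2 and HEYL lay wholly inside the annotated gene, so they do not show what precedes the annotated start. DLL1 and HEY1 were not searched. The promoters of HES1 (chr3:194135898-194136144, plus strand) and HES5 (chr1:2530264-2530513, minus strand), the HES genes with 2 cores, are printed 5′ to 3′ with each core, or its reverse complement TTCCCA, in capitals and without transcribed bases.
HES1: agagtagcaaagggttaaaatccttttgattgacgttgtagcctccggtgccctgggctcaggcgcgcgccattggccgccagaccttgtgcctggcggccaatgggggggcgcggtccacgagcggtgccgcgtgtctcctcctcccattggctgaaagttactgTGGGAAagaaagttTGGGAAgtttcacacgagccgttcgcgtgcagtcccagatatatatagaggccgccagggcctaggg
HES5: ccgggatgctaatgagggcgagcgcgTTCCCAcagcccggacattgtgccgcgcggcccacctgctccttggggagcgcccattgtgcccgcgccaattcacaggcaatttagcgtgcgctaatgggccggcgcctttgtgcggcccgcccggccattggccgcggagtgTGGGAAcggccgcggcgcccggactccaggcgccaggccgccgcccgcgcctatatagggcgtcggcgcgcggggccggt
In HES5 the matches start at -224 and -80. HEYL, with the same number of cores, had 7 reads or fewer in every sample. A match is a description of letters, not a site shown to be bound. The part of these cores in any change was not tested.

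The order of the levels per kilobase differed between the groups. In siMock it ran from HES1 at 23.8 ± 2.38 CPM per kilobase through JAG2 at 19.5 ± 2.08, NOTCH2 at 18.2 ± 2.28, NOTCH1 at 8.35 ± 0.338, NOTCH3 at 3.42 ± 0.273 and HEY1 at 1.88 ± 0.274 to JAG1 at 0.930 ± 0.0574. HEYL, HEY2 and DLL1 were each at or below 0.0890. HES1 and JAG2 overlapped, as did JAG2 and NOTCH2, HEYL and HEY2, and HEY2 and DLL1. In siFUBP1 JAG2 came first at 18.0 ± 1.17, then NOTCH2 at 11.3 ± 0.558 and HES1 at 11.1 ± 0.709, which overlapped, then NOTCH1 at 5.82 ± 0.235. HEY1 at 2.95 ± 0.206 and JAG1 at 1.71 ± 0.312 stood above NOTCH3 at 0.909 ± 0.174 there, where in siMock both stood below it. HEY2, HEYL and DLL1 were again the lowest, each overlapping its neighbour.

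The other genes of the pathway were taken from 7 lists of 66 genes by role, of which 61 were tested. Among these 18 rose, 30 fell and 13 did not pass, with a median log2 fold change of -0.21. The background is the 30.1% that rose and 30.1% that fell among all genes tested. Past 2-fold 2 rose and 8 fell, where 8.16% of all genes tested rose and 9.13% fell by that much. From each list up to 2 genes that moved most in each direction are named, and a gene added to complete a count was chosen after its values were seen. Exons of several overlap a counted gene on the other strand, CCND1 with LTO1 over 497 bases, DNM2 with TMED1 over 776, RFNG with GPS1 over 835, MAML3 with MGST2 over 252 and NCSTN with COPA over 129, and their values are uncertain to that extent.

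Of 7 other receptors and ligands, 4 were tested. DNER, a neuronal transmembrane protein that can bind Notch, rose from 73.3 ± 6.13 CPM to 127 ± 15.2 CPM, a log2 fold change of 0.79 (adjusted p = 2.24e-08). DLL4, the Delta-like ligand of sprouting vessels, fell from 26, 25 and 33 reads in siMock to 14, 11 and 12 reads in siFUBP1, a log2 fold change of -1.26 (adjusted p = 0.00360). DLL3 and DLK2 did not pass, at 0.03 and 0.38. With the offset for GC content and length DLK2 passed at 0.49 (adjusted p = 0.0474), so that 2 of the list rose. NOTCH4 had at most 5 reads in any sample, and DLK1 and CNTN1 had 0 reads in all 6.

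Receptor glycosylation sets which ligands a Notch receptor answers to. All 6 genes of this list were tested, of which 1 rose, 3 fell and 2 did not pass. The fall of LFNG, the Lunatic fringe enzyme that extends O-fucose on Notch and favours Delta-like over Jagged ligands, was larger than that of any of the 7 tested Notch genes. LFNG had 294, 289 and 212 reads in siMock and 46, 45 and 52 reads in siFUBP1. The groups stood far apart, at 16.2 ± 2.33 CPM and 2.77 ± 0.195 CPM. The log2 fold change was -2.55 (SE 0.164, adjusted p = 7.04e-13). Its relatives MFNG and RFNG did not pass, at -0.28 and 0.01. With the offset for GC content and length RFNG passed at 0.36 (adjusted p = 0.00258), so that 2 of the list rose. POFUT1, which adds the O-fucose, rose by a log2 fold change of 0.30 (adjusted p = 0.00191). POGLUT1, which adds O-glucose, and EOGT, which adds O-linked N-acetylglucosamine, fell, by -0.48 (adjusted p = 5.08e-04) and -0.38 (adjusted p = 0.00402).

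Of the 9 genes of proteolytic cleavage, 4 rose and 3 fell. FURIN, which cuts the receptor on its way to the surface, fell from 189 ± 19.7 CPM to 98.9 ± 11.9 CPM, a log2 fold change of -0.94 (adjusted p = 2.90e-09). ADAM17, a surface protease, rose by 0.63 on the log2 scale (adjusted p = 6.94e-07), and ADAM10, the main protease of ligand-bound Notch, did not pass at -0.13, though it did at -0.14 with the offset for GC content and length (adjusted p = 0.0381). Exons of ADAM17 overlap those of IAH1 on the other strand over 1323 bases, and with no strand information the reads there cannot be told apart. Of the gamma-secretase subunits, APH1B at 0.90 (adjusted p = 4.90e-07), NCSTN at 0.49 and APH1A at 0.37 rose. Another subunit, PSEN2, fell at -0.30 (adjusted p = 0.0322), a call lost with the offset for GC content and length, at -0.25 (adjusted p = 0.0511). PSENEN, a further subunit, did not pass at 0.39.

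Of the 16 genes of ligand and receptor endocytosis and turnover, 14 were tested, of which 5 rose and 8 fell. NEURL1B, a ubiquitin ligase for ligands, fell from 5.19 ± 0.954 CPM to 1.84 ± 0.109 CPM, a log2 fold change of -1.50 (adjusted p = 3.11e-06). DTX4, a Deltex ubiquitin ligase, fell from 74.4 ± 2.54 CPM to 30.6 ± 2.12 CPM, a log2 fold change of -1.28 (adjusted p = 2.14e-12). DNM2, the dynamin that pinches off endocytic vesicles, was the other gene that fell past 2-fold, at -1.09 (adjusted p = 8.15e-12). EPN1, an epsin that drives ligand endocytosis, rose by 0.80 (adjusted p = 1.77e-08), and FBXW7, which marks the intracellular domain for destruction, rose by 0.83 (adjusted p = 1.28e-05). DTX1 had 0 reads in all 6 samples. The 5 that rose and 8 that fell became 6 and 6 with the offset for GC content and length. Under it MIB2 at -0.13 (adjusted p = 0.106) and NUMBL at -0.09 (adjusted p = 0.355) no longer passed. DTX2, which had not passed before, did so at 0.19 (adjusted p = 0.0232).

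In the nuclear coactivator list of 8 genes, 3 rose and 3 fell, none past 2-fold. RBPJ itself had 709, 673 and 715 reads in siMock and 675, 679 and 780 reads in siFUBP1. The groups overlapped, and the log2 fold change was -0.06 (SE 0.0913, adjusted p = 0.612). The Mastermind genes differed, with MAML2 at 0.58 (adjusted p = 8.37e-04), MAML3 at -0.61 (adjusted p = 0.00357) and MAML1 not passing at -0.14. Of the histone acetyltransferases, CREBBP rose by 0.31 (adjusted p = 0.00156), or by 0.65 with the offset for GC content and length, and EP300 fell at -0.29 (adjusted p = 0.00563). The call of EP300 was lost with the offset for GC content and length, at -0.12 (adjusted p = 0.144), and with scaling to total counts alone, at -0.19 (adjusted p = 0.0589).

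Of the 12 RBPJ corepressors, which keep targets silent when Notch is off, 3 rose and 6 fell. CIR1, a corepressor that binds RBPJ, rose from 9.65 ± 0.655 CPM to 19.4 ± 3.03 CPM, a log2 fold change of 1.00 (adjusted p = 2.83e-07). The Groucho family members TLE2 and TLE3 fell, at -0.80 (adjusted p = 1.38e-07) and -0.67 (adjusted p = 2.60e-08), and their relative TLE1 rose at 0.39 (adjusted p = 4.75e-04). With the offset for GC content and length CIR1 was at 0.73, short of a 2-fold change, TLE2 at -0.52 and TLE3 at -0.40. All of these calls held at an adjusted p below 0.05. The 6 that fell became 3 with scaling to total counts alone and 3 without siFUBP1 replicate 2, and the 3 that rose became 5 with the offset for GC content and length.

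Of the 8 other HES genes and targets, 6 fell, 1 rose and 1 did not pass, and 3 fell past 2-fold. HES5, a HES repressor of neural progenitors, had 150, 144 and 123 reads in siMock and 55, 57 and 70 reads in siFUBP1. The groups stood apart, and the log2 fold change was -1.27 (SE 0.174, adjusted p = 5.98e-07). HES6 was at -1.03, HES4 at -0.97, HES2 at -0.42 and NRARP, a feedback inhibitor of Notch, at -0.72, all of them past the test. HES7, the somite clock repressor, did not pass at -0.17. CCND1, which encodes cyclin D1 and is also driven by many other signals, fell from 218 ± 13.8 CPM to 45.2 ± 1.13 CPM, a log2 fold change of -2.27 (adjusted p = 1.22e-17). MYC, also a target of many signals and the gene for which FUBP1 is named, rose from 79.1 ± 5.30 CPM to 200.2 ± 24.9 CPM, a log2 fold change of 1.34 (adjusted p = 1.05e-12).

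**Figure D4:**
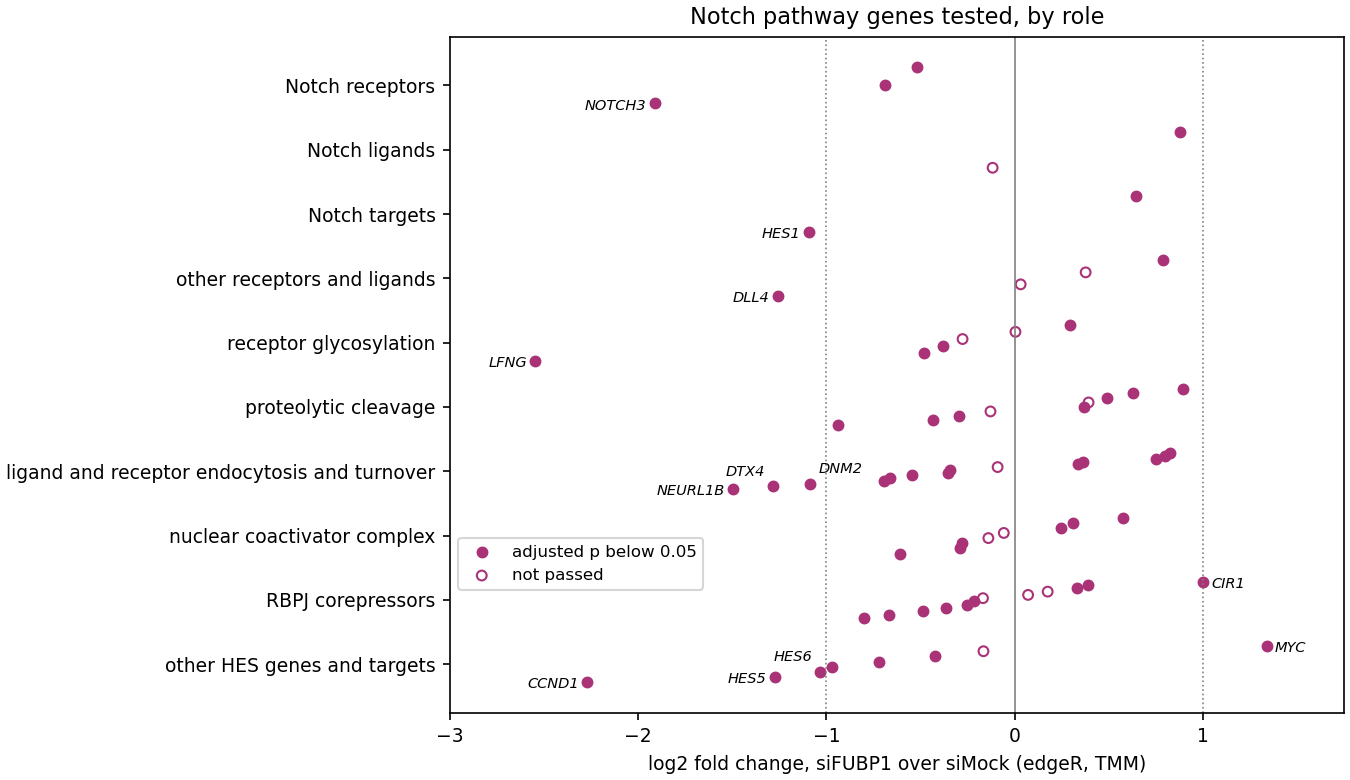
Log2 fold change, siFUBP1 over siMock, of the tested Notch pathway genes in rows by role. Each point is 1 gene, filled where the adjusted p was below 0.05, with dotted lines at a 2-fold change and names for genes past it. The 3 receptors lie left of 0, LFNG at -2.55 and CCND1 at -2.27 lie farthest left, and MYC at 1.34 lies farthest right.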

How the data were processed

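RNA of MG63 cells taken 48 h after transfection was sequenced as poly-A libraries by the authors (3 siMock, 3 siFUBP1). Samples were grouped by their titles. The kit does not mark strand. Read counts per gene were deposited without normalization; the submitters' processing notes name HISAT2 2.0.5, StringTie 1.3.3b, featureCounts 1.5.0-p3 and DESeq2 1.16.1. The FPKM values deposited by the authors served only an alternative. The authors' deposited signal columns (group means), log2 fold changes and p-values come from their own comparison and were not used. All 58735 genes match GENCODE 29 (GRCh38).

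Counts were tested with edgeR 4.0.16 in R 4.3.3 (TMM, factors 0.959 to 1.05, filterByExpr by group, robust quasi-likelihood F test, Benjamini-Hochberg adjustment). CPM are on TMM-scaled libraries. Shares were compared by exact two-sided permutation tests. Alternatives were other scalings and filters, DESeq2 1.42.0, limma 3.58.1 on log2(FPKM + 1) and log2(FPKM + 0.1), stricter calls, a replicate block, each sample left out, and an offset per gene and sample from a smooth trend (span 0.3) on GC content and length, where 16109 of the tested genes had GC content. The tests were checked on simulated data. No 2 samples were identical in their counts, and all pairs within a group differed beyond sampling noise. Limits from counts cover counting error only. Separate cultures are not stated, so p-values measure the spread between these samples, which may be technical. The 10 genes and the lists were chosen with earlier results of these data known. Named were the 10 genes, FUBP1 and, from each other list, the 2 genes of largest absolute log2 fold change that passed in each direction, with a mean of at least 20 counts. One gene that this rule names is not reported here. Promoters are from RefSeq (GRCh38.p14).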

Additional observations from a re-analysis of the deposited data

How the results depend on the processing

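The 2 Notch genes that rose and 4 that fell were also 2 and 4 without each sample in turn, while the pathway lists had 17 to 19 that rose and 27 to 31 that fell. With a 2-fold change also required, 0 Notch genes rose and 2 fell, and 2 and 8 in the lists. Of the 7 genes' fold changes under each alternative, 108 kept direction and side of the threshold. The exceptions were NOTCH1, at -0.10 (adjusted p = 0.211) with the offset for GC content and length, and JAG2, which turned to 0.26 with it. With a replicate block the counts were again 2 and 4 for the Notch genes and 20 and 29 for the lists; with the replicate block and the offset together they were 3 and 3, NOTCH1 was at -0.09 (adjusted p = 0.229) and JAG2 at 0.26. Deviations of same-numbered samples correlated at 0.028, 0.048 and 0.238 over 12361 genes. The value of replicate 3 was the highest of any siMock and siFUBP1 pair, while siFUBP1 replicate 2 correlated best with siMock replicate 1, at 0.146. With 3 samples per group these values cannot decide whether same-numbered samples are paired. Limma on log2(FPKM + 1), which understates low genes by construction, gave -1.21 for NOTCH3 and 0.49 for JAG1. Scaling to total counts alone moved the median of all genes to 0.10 and gave 5698 rises and 4121 falls against 4844 and 4851. Without 1 sample FUBP1 ranged from -2.54 to -2.38 and the NOTCH2 share difference from 0.285 to 3.13 percentage points. Depth limited DLL1, HEY2 and HEYL: with no filter on low counts none passed, at -1.45 (adjusted p = 0.384), 0.06 (adjusted p = 0.988) and -0.72 (adjusted p = 0.523).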

Other observations

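NALT1, annotated as a gene on the plus strand beside the start of NOTCH1 (ENSG00000237886, chromosome 9, 136546212 to 136549893, GRCh38), went the other way from NOTCH1, and it was picked after its values were seen. It had 93, 110 and 50 reads in siMock and 154, 192 and 164 reads in siFUBP1, so the groups did not overlap. The log2 fold change was 0.94 (SE 0.191, adjusted p = 1.64e-04, edgeR's quasi-likelihood test), and 1.22 with the offset for GC content and length. The 2 annotated genes do not overlap, as NOTCH1 lies at 136494433 to 136545786, so counted reads were set apart by position. The libraries carry no strand, so the strand of the reads counted to NALT1 is not known.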
